A study of Mus musculus with 12 samples.

Results

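The genes described here are a list of 44 interferon-stimulated genes, chosen by name for their place in the antiviral response. Earlier results of these data were known when the list was made. Of these, 43 had a row in the deposited table of 21754 genes, and 1, Ifi47, was not analysed here. All 43 reached a mean of at least 1 UMI (a counted transcript molecule) per library and were tested, with mean counts from 4.25 to 1589 and a median of 50.7. The data are bulk SCRB-seq, a method that counts transcripts by tags near their 3′ ends, of 4 dendritic cell populations sorted from the bone marrow of 3 individual C57BL/6 mice, untreated as far as the labels and methods say. The populations were Siglec-H-negative pre-cDC (precursors of conventional dendritic cells), CD11c+Siglec-H+CCR9lo precursors with low B220 (lo-lo) or high B220 (lo-hi), and CCR9hiB220hi pDC (plasmacytoid dendritic cells), with 3 libraries each and 12 in all.

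As background, cells that bind type I interferon at the receptor Ifnar1/Ifnar2 activate the kinases Jak1 and Tyk2, and a transcription factor complex that includes Stat2 and Irf9 then enters the nucleus and binds interferon-stimulated response elements. The genes switched on in this way include sensors of viral nucleic acid, enzymes that degrade or edit RNA, proteins that hold back viral entry or translation, and the ubiquitin-like protein ISG15 with its enzymes. Plasmacytoid dendritic cells sense viral nucleic acid through endosomal receptors such as Tlr7, hold Irf7 ready, and are known for making large amounts of type I interferon.

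Which library belongs to which population had to be settled first. The deposited labels and the source data of the study's heat map of transcription factors disagreed for 8 of the 12 wells. Over 28 transcription factor genes, none of them among the 43, each of the 12 samples in that source data ordered all 378 gene pairs as exactly 1 well did, while the next best well differed in at least 7 pairs. By this match, pre-cDC were wells A1, A5 and A9, lo-lo A2, A6 and A10, lo-hi A3, A7 and A11, and pDC A4, A8 and A12, and wells A1 to A4, A5 to A8 and A9 to A12 formed replicate sets 1, 2 and 3. The labels put A1 to A3 in pre-cDC, A4 to A6 in lo-lo, A7 to A9 in lo-hi and A10 to A12 in pDC. All values below follow the match, and under the labels 0 of the 43 genes were called between the 4 groups and 0 in each pair and direction. Genes outside the match followed it too. Siglech, which encodes the sort marker Siglec-H, ran from 206 to 443 CPM (counts per 1000000 after TMM scaling of the library totals) in the matched pre-cDC, from 729 to 1000 in lo-lo, from 1987 to 2367 in lo-hi and from 2537 to 2992 in pDC. Xist, the RNA of the inactive X chromosome, had 601 to 1959 counts in sets 1 and 2 and 87 to 119 in set 3, while the Y-linked Ddx3y had 1 to 10 and 58 to 145. Sets 1 and 2 thus leaned to the pattern of female mice and set 3 to that of a male. Xist was not absent from set 3, nor Ddx3y from sets 1 and 2, and the source of these counts was not tested.

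Library totals ran from 1801463 to 5995971 UMIs, and mitochondrial genes took 3.0% to 12.3% of them. Genes of other marrow cells were present in every library. The summed level of 10 neutrophil genes was 4453 to 11560 CPM in pre-cDC, 5381 to 17890 in lo-lo, 9922 to 20830 in lo-hi and 3268 to 6656 in pDC. Early response genes of cell handling such as Fos and Junb, 12 in all, summed to 1077 to 1819 in pre-cDC, 645.2 to 1025 in lo-lo, 597.9 to 864.2 in lo-hi and 593.7 to 1082 in pDC. Of these 12, 9 were called lower in pDC than in pre-cDC (10.4% of all genes) and 0 higher (11.4% of all genes). Their median log2 fold change in this pair was -2.21. Compared with pre-cDC, 8 were lower in lo-hi (6.32% of all genes) and 6 in lo-lo (1.55% of all genes). The part of other cells or of handling in the results below was not tested. In bulk libraries, more cells with a transcript and more transcript per cell cannot be told apart.

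Promoter sequences show what many of these genes share. RefSeq windows on GRCm38.p6, from 250 bases before to 50 after a start site, were found for 32 of the 43 genes. The core of the interferon-stimulated response element was searched as GAAANNGAAA on both strands. At least 1 match lay in a window of 16 of these 32 genes (50%), against 3.99% of 27025 genes in the whole promoter table. The windows below show matches in capitals, with up to 20 bases on either side of the last match in each window, written along the gene's own strand, where TTTC marks the element on the other strand. They were picked to show the entry inhibitor Ifitm3, which was highest in pre-cDC, and the ubiquitin ligase Trim30a, which was highest in pDC. The others are Irgm1, an immunity-related GTPase, and Isg15, Ifit1 and Rsad2. All of these were among the 42 of the 43 genes that were lower in replicate set 3. A link between the element and the level in set 3 was not tested.
Ifitm3, chr7:141010696-141010745, minus strand: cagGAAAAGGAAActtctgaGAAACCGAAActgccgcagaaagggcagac
Trim30a, chr7:104465200-104465249, minus strand: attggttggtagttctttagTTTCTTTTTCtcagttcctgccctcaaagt
Irgm1, chr11:48871415-48871464, minus strand: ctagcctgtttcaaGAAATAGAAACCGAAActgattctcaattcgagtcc
Isg15, chr4:156200855-156200904, minus strand: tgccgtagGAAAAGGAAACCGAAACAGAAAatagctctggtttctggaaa
Ifit1, chr19:34640784-34640833, plus strand: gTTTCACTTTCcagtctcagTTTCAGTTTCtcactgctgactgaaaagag
Rsad2, chr12:26456543-26456592, minus strand: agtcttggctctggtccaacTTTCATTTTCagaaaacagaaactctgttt
Among the 16 genes with a window that were called in at least 1 pair of populations, 5 held the core, and among the 16 that were not called, 11 did. The windows of Ifi44, Oasl1, Oasl2, Ifit2 and Lgals3bp held no match to these letters. A match describes letters only, and nothing about binding was measured.

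Across the 4 populations, 13 of the 43 genes passed a 3 degree of freedom quasi-likelihood F-test in edgeR at an adjusted p under 0.01, against 19.9% of all 15293 genes tested. With the replicate set as a block the count was 25 genes, against 24.4% of all genes, and the 13 were among them. Leaving out the pDC library of set 2 took the 13 to 7, and leaving out the pre-cDC library of set 1 took it to 8. Under the deposited labels it was 0 genes, against 0% of all genes. At an unadjusted p under 0.05 the labels gave 1 gene (1.09% of all genes), and DESeq2 gave 0. Mean levels were highest in pDC for 28 of the 43 genes, in pre-cDC for 10, in lo-hi for 3 and in lo-lo for 2. They were lowest in pre-cDC for 19 and in lo-lo for 17. The same counts were not made over all genes, so they do not set this list apart.

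**Figure D1:**
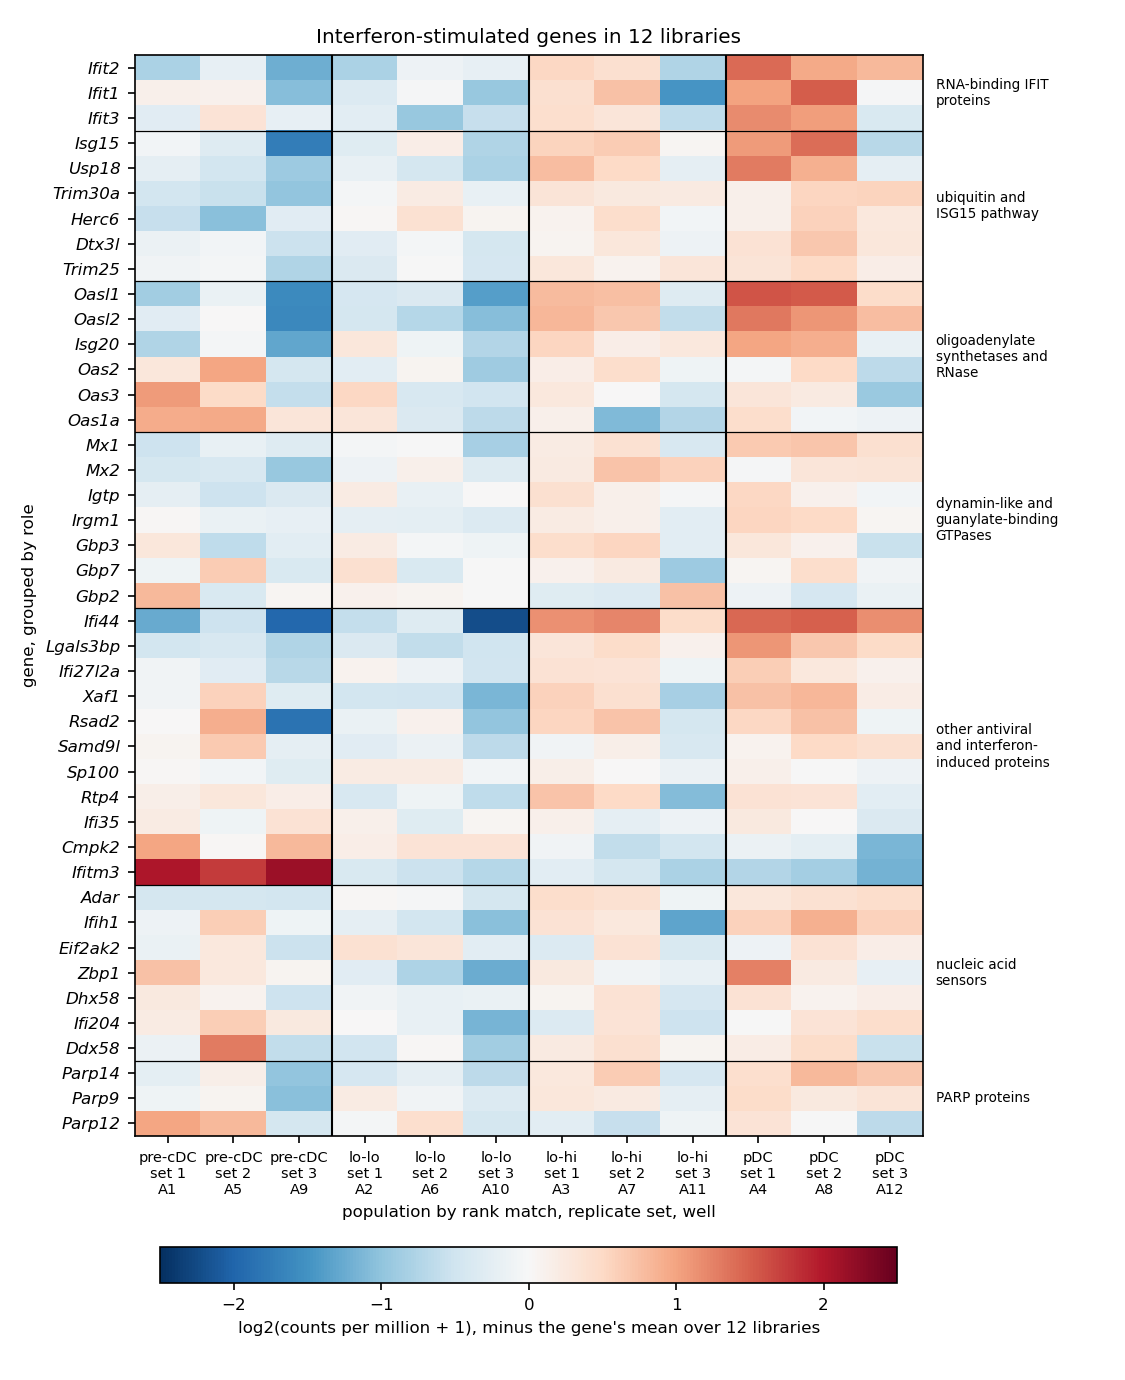
Level of each of the 43 genes (rows, grouped by role) in each of the 12 libraries (columns, by matched population, replicate set and well), as log2 of CPM plus 1 minus the gene's mean over the 12 libraries. Red fields, above the mean, gather in the pDC columns for most IFIT and OASL genes, while Ifitm3 is red in the 3 pre-cDC columns alone, and the set 3 column is often the bluest of its population.

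Over all genes, the pair with the most calls was pDC and pre-cDC. Here 13 of the 43 genes were higher in pDC (11.4% of all genes were) and 2 were lower (10.4% of all genes). The median log2 fold change of the 43 was 0.63, with 33 above 0, beside a median of 0.05 over all genes. The 13 genes were spread over all 7 roles. They were Ifit2 among the IFIT proteins, which bind viral RNA, Oasl1, Oasl2 and Isg20 among the oligoadenylate synthetase family and RNases, Mx1 among the GTPases, Trim30a, Herc6 and Dtx3l in the ubiquitin group, Parp14 among PARP proteins, the RNA editor Adar, and Ifi44, Lgals3bp and Ifi27l2a. In each of the 3 replicate sets, pDC were above pre-cDC for the 5 largest of them. Without the pDC library of set 2 the count was 6 higher, and without the pre-cDC library of set 1 it was 8 higher and 1 lower.

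Ifi44, an interferon-induced protein of uncertain role (chr3:151730922-151749960 in GENCODE vM21, GRCm38), was measured at 6.15, 10.9 and 3.38 CPM in pre-cDC of sets 1, 2 and 3. Its level was 10.3, 12.6 and 2.68 in lo-lo, 37.1, 38.8 and 22.6 in lo-hi, and 45.1, 47.4 and 37.3 in pDC. Both B220hi populations lay above both others with no overlap. The log2 fold change from pre-cDC to pDC was 2.75 (SE 0.46, adjusted p = 0.000692, edgeR).

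Oasl1, an OAS-like protein known to restrain translation of Irf7 mRNA (chr5:114923240-114937915), had 2.34, 4.46 and 1.01 CPM in pre-cDC and 3.54, 3.75 and 1.34 in lo-lo. In set 3 these low values rest on few counts. A floor of 3 counts stood at 1.0 CPM in that pre-cDC library and at 0.717 in that lo-lo library, before TMM scaling. Values were 9.5, 9.31 and 3.86 in lo-hi and 17.2, 16.7 and 7.38 in pDC. All pDC libraries were above all pre-cDC and lo-lo libraries, and set 3 was the lowest of the 3 in every population. The pDC level was higher than in pre-cDC by a log2 fold change of 2.55 (SE 0.45, adjusted p = 0.000157, edgeR). Its neighbour Oasl2 (chr5:114896936-114912234) had 9.95, 12.4 and 3.38 in pre-cDC, 8.86, 7.17 and 5.36 in lo-lo, 22.5, 20.2 and 7.72 in lo-hi and 32.4, 27.8 and 21.7 in pDC. For Oasl2 the log2 fold change was 1.73 (SE 0.38, adjusted p = 0.00235, edgeR).

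Ifit2, which binds viral RNA and slows its translation (chr19:34550694-34576419), was at 2.63, 4.46 and 1.69 CPM in pre-cDC, 2.66, 4.78 and 4.47 in lo-lo, 7.95, 7.24 and 2.76 in lo-hi, and 15.8, 11.1 and 9.98 in pDC. The lowest Ifit2 value, 1.69 in pre-cDC of set 3, was not far above the floor of 1.0 at 3 counts. The 3 pDC values were the highest of the 12. Its log2 fold change over pre-cDC was 2.18 (SE 0.36, adjusted p = 3.78e-05, edgeR). Isg20, an exonuclease that degrades single-stranded RNA (chr7:78913424-78920396), had 8.78, 14.9 and 5.74 in pre-cDC, 19.2, 14.3 and 8.93 in lo-lo, 23, 17.6 and 18.7 in lo-hi, and 31.7, 30 and 13.4 in pDC. Here the pDC library of set 3 lay below the set 2 pre-cDC library, and the log2 fold change was 1.45 (SE 0.36, adjusted p = 0.00525, edgeR).

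Among the other 8 genes that were higher in pDC, Lgals3bp, a secreted glycoprotein (chr11:118392751-118402092), was at 33.4, 34.7 and 27 CPM in pre-cDC, 35.7, 29.7 and 32.4 in lo-lo, 57.4, 63.6 and 50.1 in lo-hi, and 100, 74.5 and 64.7 in pDC. The values of lo-hi lay above those of pre-cDC and lo-lo and below those of pDC, with no overlap on either side. Trim30a, a ubiquitin ligase and the most abundant of its role (chr7:104409025-104465193), was at 139, 130 and 95.9 in pre-cDC, 185, 222 and 168 in lo-lo, 240, 228 and 225 in lo-hi, and 210, 280 and 283 in pDC. Only the pre-cDC libraries of Trim30a stood apart from all others. The log2 fold change in pDC was 1.35 (SE 0.18) for Lgals3bp and 1.08 (SE 0.17) for Trim30a, with adjusted p of 1.85e-06 and 1.33e-05 in edgeR. Adar, which edits adenosine in double-stranded RNA and is the most abundant nucleic acid sensor or modifier on the list, was at 33.7, 33.7 and 33.1 in pre-cDC, 47.2, 45 and 33.7 in lo-lo, 62.7, 60.5 and 42.4 in lo-hi, and 56.2, 60 and 62.5 in pDC. Ifi27l2a, an interferon-induced membrane protein with the highest count of the 43, ran from 286 to 432 in pre-cDC and from 497 to 706 in pDC, a log2 fold change of 0.68. For Mx1, Parp14, Herc6 and Dtx3l the log2 fold changes were 0.997, 0.997, 0.99 and 0.70. C57BL/6 mice carry a defective Mx1 allele, so its RNA level does not stand for a working protein.

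**Figure D2:**
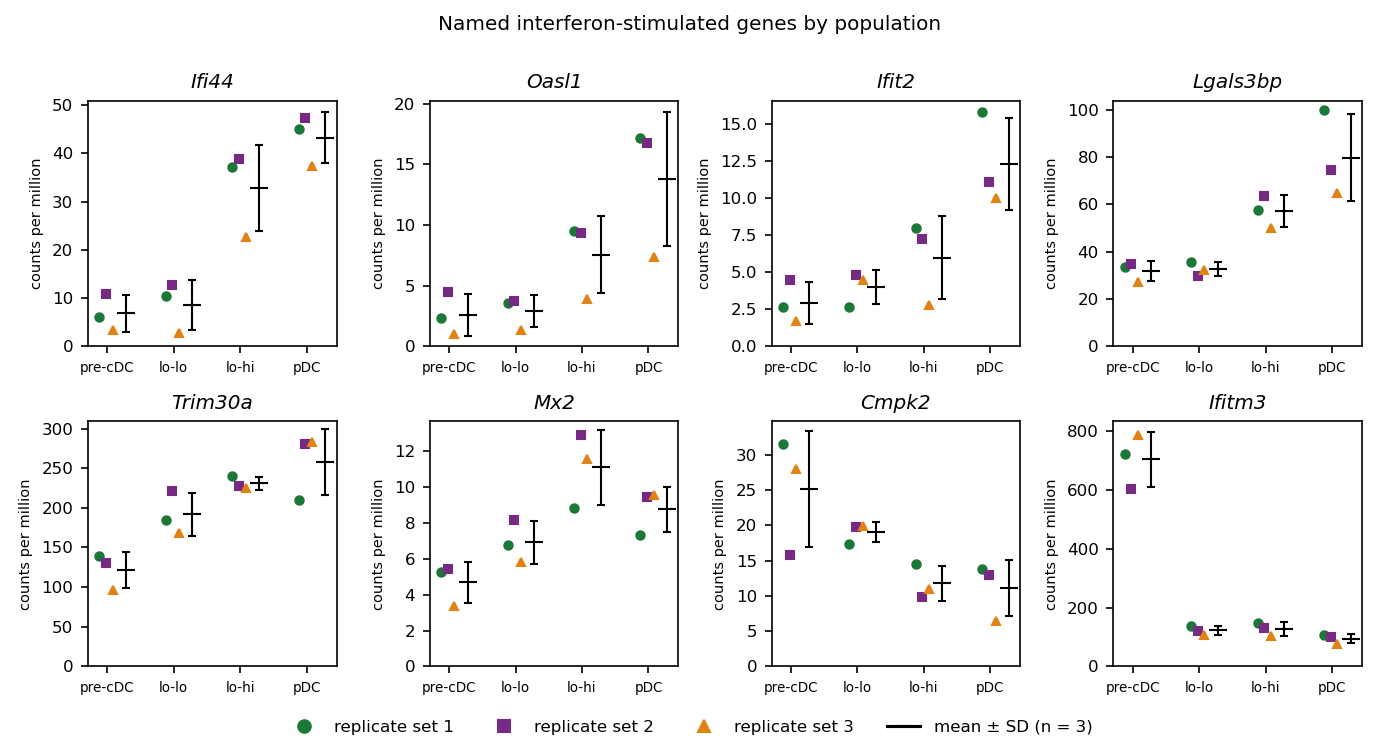
CPM (y, from 0) of 8 named genes in the 4 matched populations (x). Each symbol is 1 library, its shape and colour give the replicate set, and black bars give mean ± SD of 3 libraries. Ifi44 is at 2.68 to 12.6 in lo-lo and 22.6 to 38.8 in lo-hi, Lgals3bp lies between in lo-hi, and Ifitm3 is high in pre-cDC alone.

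Against this direction, Ifitm3 was far lower in pDC. It encodes a membrane protein that holds back fusion of enveloped viruses (chr7:141009586-141010770). Its level was 723, 604 and 788 CPM in pre-cDC, 138, 122 and 108 in lo-lo, 148, 131 and 103 in lo-hi, and 107, 99.2 and 77.7 in pDC. The lowest pre-cDC library was above every other library. The log2 fold change from pre-cDC to pDC was -2.89 (SE 0.18, adjusted p = 8.38e-12, edgeR). Ifitm genes have close paralogs, and reads that fit several copies could be split or lost in counting. Ifitm2, a paralog beside it, moved the same way, from 86.3 to 148 in pre-cDC to 8.68 to 11.4 in pDC, a log2 fold change of -3.46 (adjusted p = 1.13e-11, edgeR). Of 10 monocyte and macrophage marker genes, 4 were also lower in pDC than in pre-cDC (Ccr2, Adgre1, Fcgr1 and Cd14), against 10.4% of all genes. The median log2 fold change over the 10 was -1.45. Compared with pre-cDC, 2 were lower in lo-hi (6.32% of all genes) and 2 in lo-lo (1.55% of all genes). Their summed level, in which Ly6c2 was the most abundant, was 2543 to 2803 CPM in pre-cDC, 2109 to 2203 in lo-lo, 2546 to 2719 in lo-hi and 2550 to 3314 in pDC, and no gene of the list was at 0 in all libraries. Ly6c2 was also listed as a pDC marker, so this sum cannot show the share of monocytes. The part of monocytes and macrophages in the level of Ifitm3 was not tested.

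Cmpk2, a mitochondrial nucleotide kinase (chr12:26469204-26479837), was the other gene lower in pDC. It had 31.6, 15.9 and 28 CPM in pre-cDC, 17.4, 19.8 and 19.9 in lo-lo, 14.6, 9.83 and 11 in lo-hi, and 13.8, 12.9 and 6.51 in pDC. The set 2 pre-cDC library lay below all 3 lo-lo libraries, and every pDC library lay below every pre-cDC library. Its log2 fold change was -1.15 (SE 0.25, adjusted p = 0.000919, edgeR). Its neighbour on the opposite strand, the antiviral enzyme gene Rsad2 (chr12:26442746-26456452), did not pass in any pair. Rsad2 was at 16.1, 30.7 and 3.72 in pre-cDC, 14.2, 17.4 and 7.59 in lo-lo, 23.6, 26.9 and 11.6 in lo-hi, and 23.3, 27.2 and 14.8 in pDC, with log2 fold change 0.46 (adjusted p = 0.622, edgeR) in pDC over pre-cDC. The groups of Rsad2 overlapped widely.

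Between pDC and lo-lo, 13 of the 43 genes were higher in pDC (6.71% of all genes) and 0 were lower (7.08% of all genes). At an unadjusted p under 0.05, 2 genes were lower (15.2% of all genes), and DESeq2 called 0 lower. With the replicate block the higher count was 20 genes, and the share of all genes in that fit was not counted. Between the 4 populations, the block took the share of all genes called from 19.9% to 24.4%. The median log2 fold change of the 43 was 0.70, with 38 above 0, beside 0.02 over all genes. Ifi44, Oasl1 and Oasl2 led with log2 fold changes of 2.42 (SE 0.43), 2.37 (SE 0.42) and 1.97 (SE 0.37) and adjusted p of 0.0016, 0.000237 and 0.00107 in edgeR. Leaving out the lo-lo library of set 3 took the count from 13 to 4, and leaving out the pDC library of set 1 or 2 took it to 6.

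The lo-lo comparison brought in 5 genes that were not called against pre-cDC, and all 5 had a higher mean in pre-cDC than in lo-lo. Zbp1, a sensor of left-handed nucleic acid that can start cell death, had 13.5, 9.42 and 8.11 CPM in pre-cDC, 6.2, 4.09 and 2.68 in lo-lo, 9.28, 7.24 and 6.61 in lo-hi and 19.8, 9.16 and 6.51 in pDC. Ifih1, the cytosolic sensor of long double-stranded RNA also called MDA5, had 7.61, 13.4 and 7.77 in pre-cDC, 7.09, 5.8 and 3.57 in lo-lo, 11, 10.3 and 2.76 in lo-hi and 13.1, 16.4 and 13 in pDC. For Zbp1 every lo-lo library lay below all others, while for Ifih1 the lowest value was the lo-hi library of set 3. The log2 fold change of pDC over lo-lo was 1.58 for Zbp1 (adjusted p = 0.00368), 1.39 for Ifih1 (adjusted p = 0.00296), 1.58 for Xaf1, a pro-apoptotic protein (adjusted p = 0.00198), 1.67 for Ifit3 (adjusted p = 0.00216) and 0.68 for Irgm1, a GTPase that acts on vacuoles holding pathogens (adjusted p = 0.00445), all from edgeR. Between lo-lo and pre-cDC the same 5 genes gave log2 fold changes from -1.30 to -0.17, and none of these passed without the replicate block. With it Zbp1 was lower in lo-lo (log2 fold change -1.27, adjusted p = 0.00231, edgeR), and the other 4 genes did not pass.

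**Figure D3:**
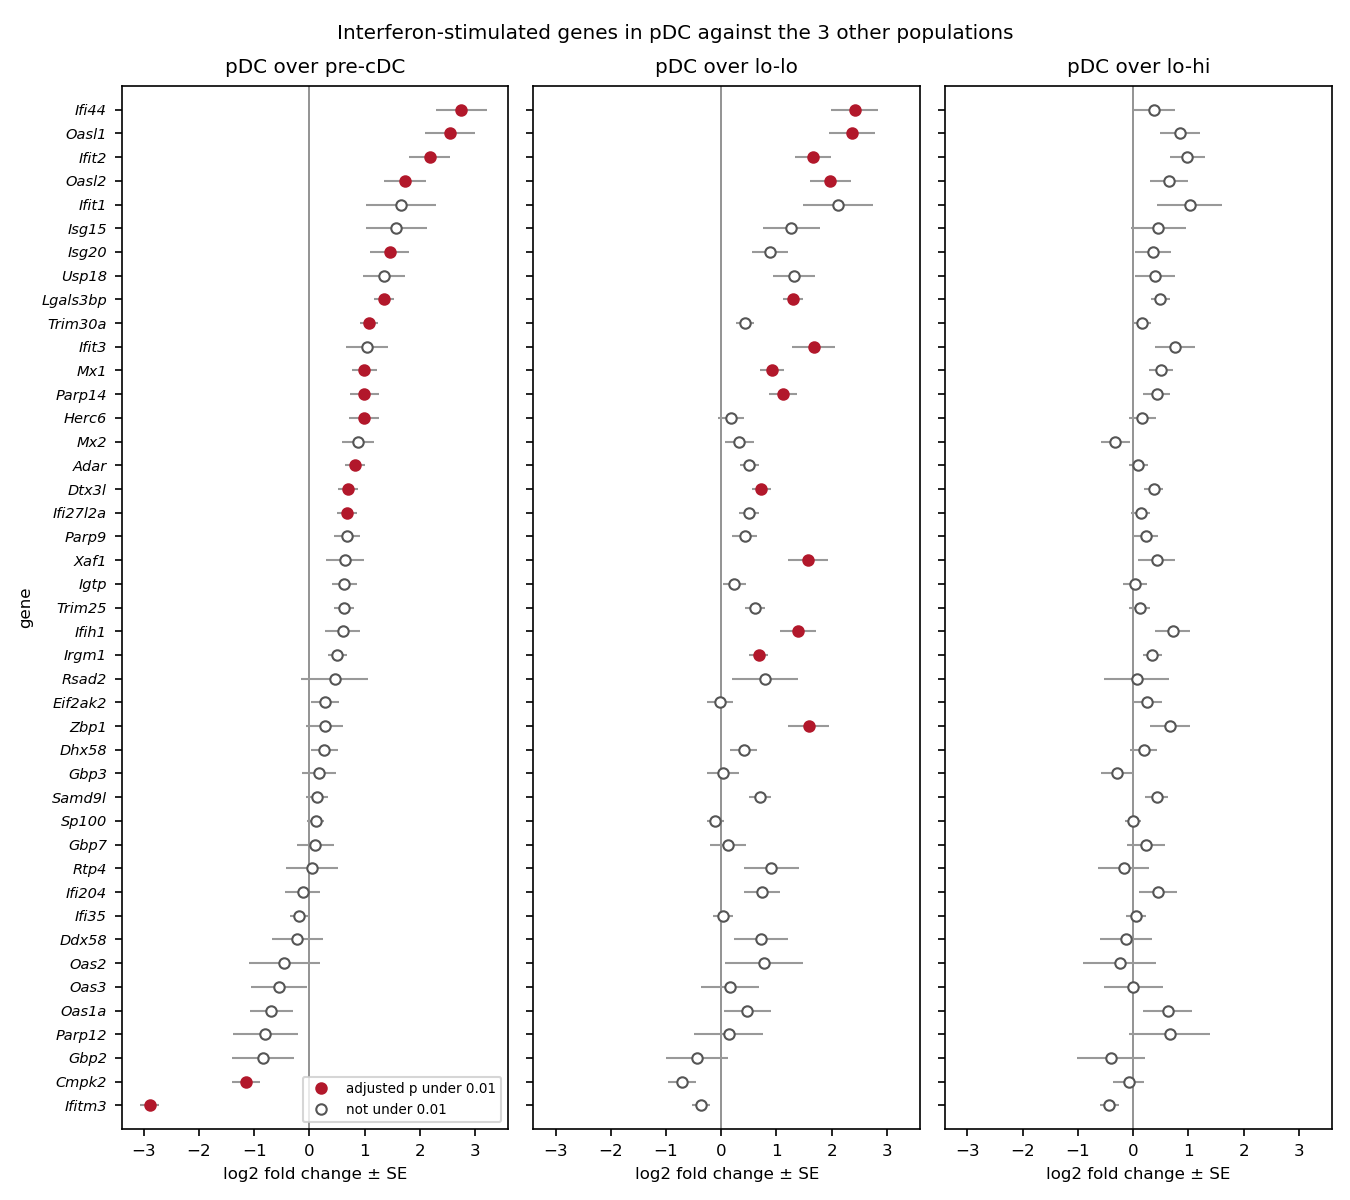
Log2 fold change (x, with SE bars from edgeR) of each of the 43 genes (y, ordered by the left panel) in pDC over pre-cDC, lo-lo and lo-hi. Filled symbols have an adjusted p under 0.01. There are 15, 13 and 0 of these in the 3 panels, and Ifitm3 is at -2.89 on the left.

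No gene of the list was called between pDC and their closest neighbours, the lo-hi precursors. There were 0 higher (0.118% of all genes) and 0 lower (0.844% of all genes). At an unadjusted p under 0.05, 7 genes were higher (4.94% of all genes) and 1 was lower (6.4% of all genes) in pDC, and DESeq2 called 0 in both directions. The median log2 fold change was 0.26, with 34 of 43 above 0, beside 0.03 over all genes. Ifit2, Lgals3bp and Mx1 had the smallest p, with log2 fold changes of 0.98 (SE 0.32, adjusted p = 0.129), 0.49 (SE 0.17, adjusted p = 0.191) and 0.51 (SE 0.22, adjusted p = 0.364) in edgeR, and with pDC above lo-hi in 3 of 3 sets for each. On the lower side the smallest p belonged to Ifitm3, at -0.43 (adjusted p = 0.272), Mx2, at -0.32, and Gbp3, at -0.29.

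The step from lo-lo to lo-hi held 1 called gene, Lgals3bp, higher in lo-hi with log2 fold change 0.81 (SE 0.18, adjusted p = 0.00419, edgeR), against 2.33% of all genes. No gene was lower (2.83% of all genes), with 1 lower at an unadjusted p under 0.05 (9.9% of all genes) and 0 in DESeq2. Ifi44 had the largest log2 fold change of this pair, 2.03 (SE 0.44), with no overlap between lo-lo and lo-hi, but was not called (adjusted p = 0.0135, edgeR). It was called in DESeq2 (adjusted p = 0.00457) and with the block (adjusted p = 1.22e-07, edgeR). With the replicate block the higher count was 5, Lgals3bp, Ifi44, Oasl1, Oasl2 and Usp18, and the share of all genes in that fit was not counted. Unblocked, the count was 0 without the set 1 library of lo-lo or lo-hi, or the set 2 library of lo-hi or pDC. It was 2 without the pre-cDC library of set 2 or the lo-hi library of set 3, and 3 without the pre-cDC library of set 3. The median log2 fold change of the 43 was 0.41, with 35 above 0, beside 0.01 over all genes. Cmpk2 had the smallest p on the lower side, at -0.64 (adjusted p = 0.159).

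Against pre-cDC, lo-hi cells had 5 genes higher (6.76% of all genes) and 2 lower (6.32% of all genes). The higher genes were Ifi44, with log2 fold change 2.36 (SE 0.48, adjusted p = 0.00397), Mx2, with 1.20 (SE 0.29, adjusted p = 0.00373), Trim30a, with 0.92 (SE 0.17, adjusted p = 0.000184), Lgals3bp and Adar, all by edgeR. The lower genes were Ifitm3, at -2.46 (SE 0.17, adjusted p = 4.12e-10), and Cmpk2, at -1.07 (SE 0.26, adjusted p = 0.004). With the replicate block 11 were higher, and the share of all genes in that fit was not counted. The higher count was 1 without the lo-hi library of set 2 or the pre-cDC library of set 3, 2 without the pre-cDC library of set 1, 3 without the lo-hi library of set 1 and 8 without the pDC library of set 3. The lower count was 1 without the pre-cDC library of set 1 or 3 or the lo-hi library of set 2 or 3. Mx2 (chr16:97535308-97560900, annotated as a polymorphic pseudogene) was the only one of these whose highest mean was in lo-hi. It had 5.27, 5.45 and 3.38 CPM in pre-cDC, 6.79, 8.19 and 5.81 in lo-lo, 8.83, 12.9 and 11.6 in lo-hi and 7.32, 9.48 and 9.54 in pDC, so that lo-hi and pDC overlapped.

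Between lo-lo and pre-cDC, Ifitm3 alone was called. It was lower in lo-lo by a log2 fold change of -2.53 (SE 0.17, adjusted p = 1.98e-09, edgeR), against 1.55% of all genes, and 0 genes were higher (1.61% of all genes). At an unadjusted p under 0.05, 2 genes were higher (9.76% of all genes), DESeq2 called 0, and both the replicate block and the fit without the pDC library of set 1 called 1 higher and 2 lower. With the block these were Trim30a on the higher side and Ifitm3 and Zbp1 on the lower, and the share of all genes was not counted. Trim30a, Herc6 and Mx2 had the smallest p on the higher side, with log2 fold changes of 0.65 (adjusted p = 0.0168), 0.82 (adjusted p = 0.0789) and 0.55 (adjusted p = 0.355). The median of the 43 was -0.12, with 19 above 0, beside 0.04 over all genes.

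In all, 21 of the 43 genes were called in at least 1 pair and 22 in none. Among the 22 were Isg15, the ubiquitin-like modifier, and Usp18, the protease that removes it and restrains the receptor. Isg15 had 8.49, 6.94 and 2.03 CPM in pre-cDC, 7.09, 10.2 and 4.91 in lo-lo, 13.7, 14.5 and 9.37 in lo-hi and 19.8, 25.3 and 5.21 in pDC. Usp18 had 30.4, 25.8 and 18.6 in pre-cDC, 31.3, 25.9 and 20.3 in lo-lo, 61.8, 50.7 and 30.3 in lo-hi and 89.9, 67.3 and 30.4 in pDC. In sets 1 and 2 both genes were highest in pDC, while the set 3 libraries lay lower throughout. Their log2 fold changes over pre-cDC were 1.57 and 1.35, with adjusted p of 0.0507 and 0.0204 in edgeR. Between the 4 populations, Isg15 had an adjusted p of 0.132 without the replicate block and 6.49e-05 with it, and Usp18 0.0373 and 4.24e-08.

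Others of the 22 were at low counts. Oas2, Parp12, Gbp2, Ifit1, Rtp4 and Oas3 had mean counts under 10. Ifit1, the RNA cap sensor, had 0 counts in the lo-hi library of set 3, which allows up to 1.67 CPM at 3 counts. Its values were 2.05, 1.98 and 0.338 in pre-cDC, 1.18, 1.71 and 0.447 in lo-lo, 2.65, 3.62 and 0 in lo-hi, and 4.6, 6.95 and 1.74 in pDC. The classical synthetase Oas1a went the other way from the OAS-like genes in its values, with 7.32, 7.44 and 4.39 in pre-cDC and 4.94, 3.16 and 3.04 in pDC, but its log2 fold change of -0.69 did not pass (adjusted p = 0.187, edgeR). The remaining genes, Rsad2, Ifi35, Ddx58, Dhx58, Trim25, Parp9, Samd9l, Ifi204, Igtp, Gbp3, Gbp7, Sp100 and Eif2ak2, had log2 fold changes of pDC over pre-cDC from -0.21 to 0.67. Sp100, a nuclear body protein, ran from 139 to 196 across the 12 libraries. Some values, also of called genes, are uncertain in counting because exons overlap. Those of Parp9 and Dtx3l overlap by 458 bases on opposite strands, and those of Adar and Chrnb2 by 1365 on opposite strands. On the same strand, exons of Herc6 overlap Gm45193 by 1269 bases, and those of Parp14 overlap Gm49730 by 110. Same-strand overlaps of uncalled genes were 637 bases for Gbp7, 296 for Rtp4, 162 for Igtp (with Irgm2) and 104 for Sp100.

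The pathway above these genes was read from a second list of 60 genes, of which 43 were found and 37 tested. Of the 37, 17 were called between the 4 populations, beside 19.9% of all genes, and pDC over pre-cDC gave 13 higher and 2 lower, beside 11.4% and 10.4% of all genes. Under the deposited labels 0 were called between the groups. The interferon ligand genes in the table were at or near 0 counts in every library. Ifnb1 had 0.511 and 0.316 CPM in the pDC libraries of sets 1 and 2 and 0 in the other 10 libraries, all at or under the 3 counts that define the floor. The receptor subunits split. Ifnar1 was at 52.7, 60 and 44.6 in pre-cDC, 102, 88.4 and 88.7 in lo-lo, 126, 115 and 111 in lo-hi and 133, 135 and 161 in pDC, with no overlap between pre-cDC and the rest. Its log2 fold change in pDC over pre-cDC was 1.45 (adjusted p = 8.17e-08), beside 0.66 for Ifnar2 and 1.21 for Il10rb, a subunit of the interferon lambda receptor. The interferon gamma receptor moved the opposite way. Ifngr1 had 108, 89.8 and 144 in pre-cDC and 38.7, 38.5 and 28.2 in pDC, a log2 fold change of -1.69 (adjusted p = 2.71e-07), and Ifngr2 had -0.52 (adjusted p = 0.00927), all by edgeR.

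**Figure D4:**
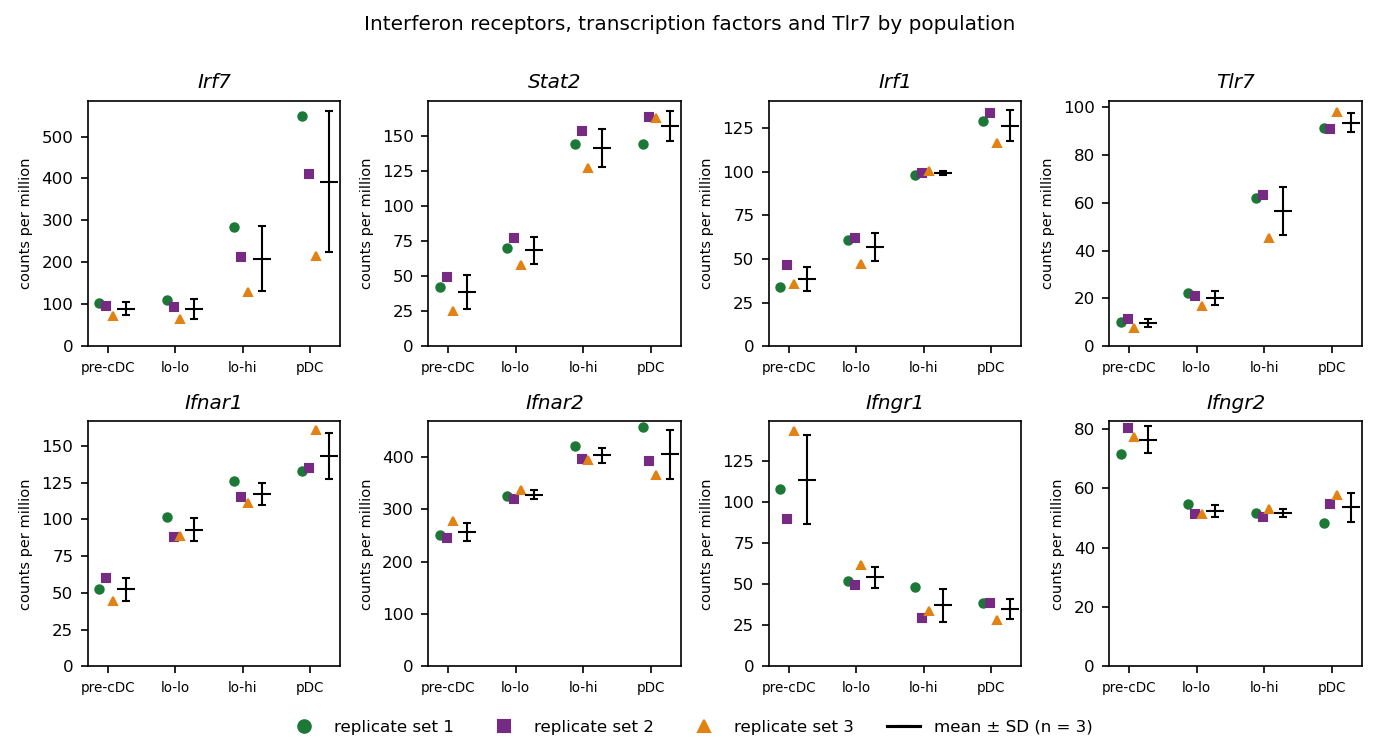
CPM (y, from 0) of 3 transcription factors, the RNA sensor Tlr7 and 4 interferon receptor subunits in the 4 matched populations (x). Symbols are single libraries by replicate set, and bars are mean ± SD of 3 libraries. Irf7 is at 215 to 549 in pDC with set 3 lowest, Stat2 is high in lo-hi and pDC, and Ifngr1 is highest in pre-cDC.

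Of the transcription factors, Irf7, the factor that drives interferon alpha genes, was at 102, 94.7 and 71.3 CPM in pre-cDC, 111, 92.8 and 63.9 in lo-lo, 285, 212 and 130 in lo-hi and 549, 412 and 215 in pDC. Set 3 was the lowest library in each population. Stat2 was at 41.9, 49.1 and 25 in pre-cDC, 70, 77.1 and 58.1 in lo-lo, 144, 153 and 127 in lo-hi and 144, 163 and 163 in pDC, and the lo-hi and pDC values overlapped. In pDC over pre-cDC the log2 fold changes were 2.14 for Irf7 (adjusted p = 0.00207), 2.03 for Stat2 (adjusted p = 7.88e-09) and 1.73 for Irf1 (adjusted p = 1.01e-08). Irf9, Irf2, Irf3 and Irf5 were not called in this pair, with -0.15 to 0.37. Jak1 was higher in pDC, with 0.82 (adjusted p = 0.001), while Jak2 (-0.65) and Tyk2 (0.19) were not called. The feedback inhibitors Socs1 and Socs3 were higher by 2.62 and 1.87 (adjusted p = 0.00013 and 0.00109). Tlr7, the endosomal receptor for single-stranded RNA, rose most, by 3.28 (adjusted p = 8.44e-12), and Ptpn1 and Unc93b1 were also higher. None of the 37 was called between pDC and lo-hi.

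Another list of 67 further interferon-stimulated genes, 58 found and 55 tested, had 17 higher and 4 lower in pDC over pre-cDC, beside 11.4% and 10.4% of all genes. In pDC over lo-lo 15 were higher and 2 lower, beside 6.71% and 7.08%, and in pDC over lo-hi 0 were called, beside 0.118% and 0.844%. Between the 4 labelled groups 0 were called. The genes with the largest folds over pre-cDC were Iigp1, a GTPase, at 3.44, Gbp8 at 2.85 and Ly6a at 2.72 on the log2 scale. On the lower side were Ifitm2, Ifitm1 at -2.08 and Slfn2 at -0.76. The median log2 fold change of this list in pDC was 0.41 over pre-cDC and 0.49 over lo-lo.

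The 3 replicate sets differed as well, and the genes named for this were chosen after their values were seen. Mean log2 CPM over the 43 genes were 3.90, 4.02 and 3.33 in pre-cDC of sets 1, 2 and 3, 3.77, 3.73 and 3.27 in lo-lo, 4.18, 4.16 and 3.57 in lo-hi, and 4.41, 4.41 and 3.89 in pDC. Sets 1 and 2 lay close together and set 3 lay below both in every population. In the fit with both terms, set 3 was below the mean of the other sets for 42 of the 43 genes, with a median log2 difference of -0.46 beside 0.0018 over all genes, and Gbp2 was the exception at 0.25. The set 3 library was the lowest of its population in all 4 populations for 16 of the 43 genes, against 1.84% of all genes. A 2 degree of freedom F-test for the set called 4 genes (0.66% of all genes), Rsad2, Usp18, Isg15 and Oasl1, with differences of -1.27, -0.84, -1.28 and -1.31 on the log2 scale and adjusted p of 0.000297, 0.000331, 0.00269 and 0.00912 in edgeR. The count was 11 without the pDC library of set 3 and 2 without the lo-hi library of set 1. Each set was taken as 1 mouse and set 3 is the only one with the male pattern, so that mouse, sex and position on the plate cannot be told apart.

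**Figure D5:**
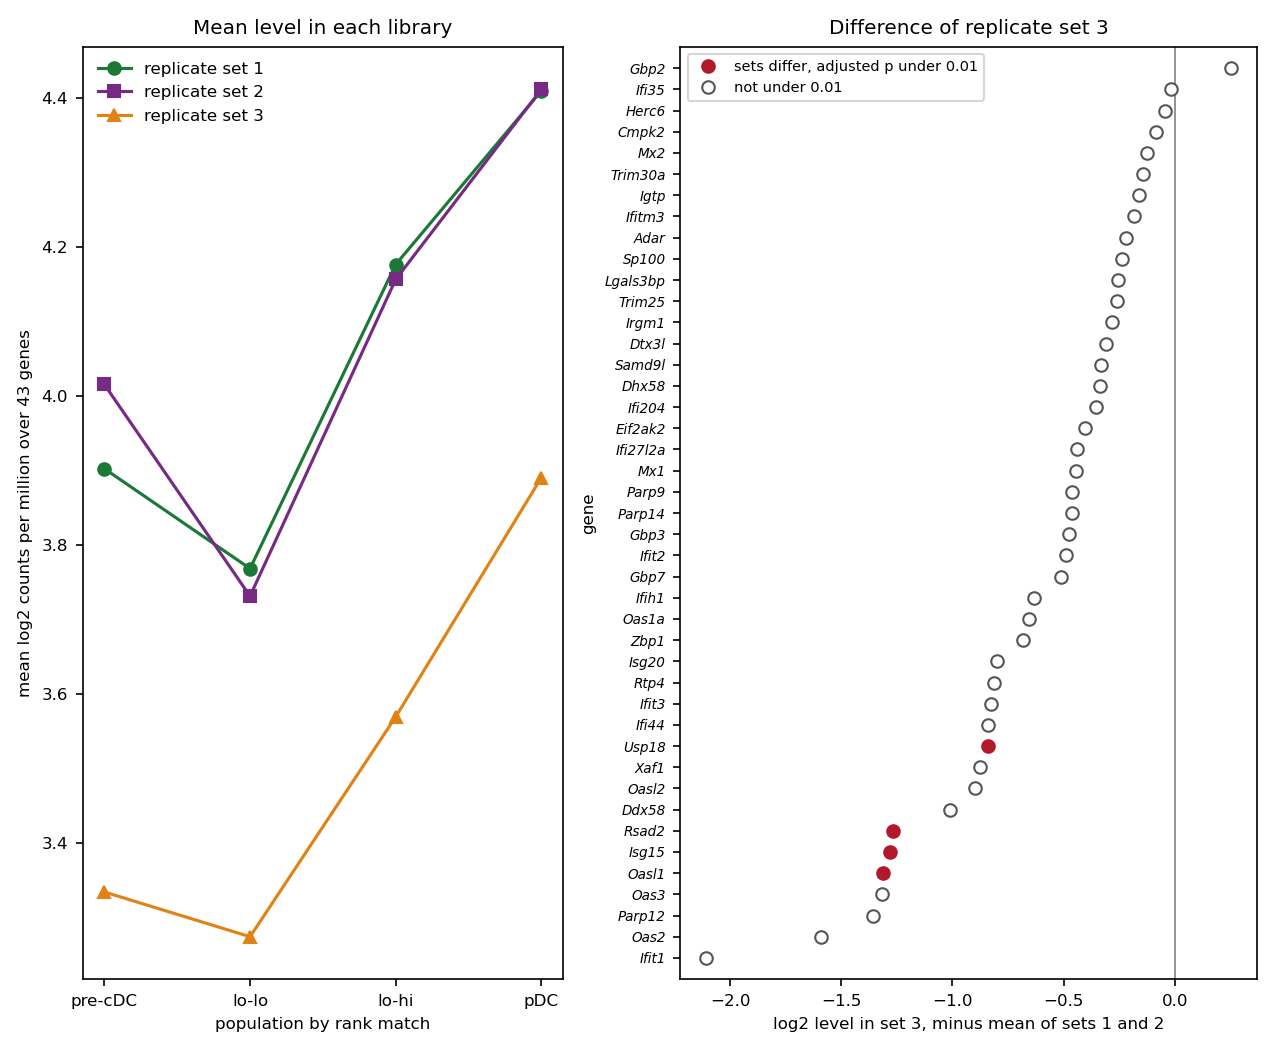
Left, mean log2 CPM over the 43 genes (y) in each library by matched population (x), with lines joining libraries of 1 replicate set. Right, log2 level of set 3 minus the mean of sets 1 and 2 (x) for each gene (y), with filled symbols where the sets differ at an adjusted p under 0.01. Set 3 is the lowest line throughout, and 42 of the 43 genes lie left of 0.

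The order of the populations held within the sets. In each of the 3 sets the mean over the 43 genes was highest in pDC, next in lo-hi, then in pre-cDC, and lowest in lo-lo. With the 8 libraries of sets 1 and 2 alone, the counts were 13 between the 4 populations, 12 higher and 1 lower in pDC than in pre-cDC, and 13 higher in pDC than in lo-lo. The share of all genes in that fit was not counted, so these counts do not set the list apart. The early response gene Fos was also highest in set 3 in every population, at 404 in pre-cDC and 174 in pDC against 211 and 84.1 in set 1. The mean log2 CPM of all 12 early response genes was highest in set 3 except in lo-hi, at 4.253 in set 3 and 4.285 in set 2. The part of these genes in the lower level of set 3 was not tested.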

How the data were processed

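The deposited table holds UMI counts per gene, made by the authors with zUMIs and STAR 2.5.2b against GRCm38/mm10, per the labels and the study's methods. No values were normalised before deposit. Symbols were assigned from the reference tables (21410 of 21754 gene IDs). A gene was tested where its count averaged 1 or more across the 12 libraries (15293 genes, with 6461 left out), with edgeR 4.0.16 (R 4.3.3): TMM scaling, robust quasi-likelihood F-tests, all 12 libraries in 1 fit, Benjamini-Hochberg adjustment over all tested genes, cutoff 0.01. The SE of a log2 fold change is its size divided by the square root of its F statistic. Levels are CPM, counts per 1000000 after TMM scaling. They are not divided by length, since the tags come from transcript ends. DESeq2 1.42.0, other scalings, filters and cutoffs, thinning to the smallest total and leaving out each library were alternatives, and the test was tested on simulated data. The fit for replicate sets was added after the data were seen. Libraries with the same matched replicate number were taken as 1 mouse, since the populations came from 3 mice. Sex-linked genes told set 3 from sets 1 and 2, but not set 1 from set 2. Deviations from population means correlated by 0.12 on average within a set, from -0.15 to 0.31, and by up to 0.26 between sets. The mean of -0.06 between sets adds nothing to this, since the 3 deviations of a population sum to 0. The members, gene lists and rules were chosen with earlier results of these data known. Values in every library were given for the largest called changes in each direction and for other genes the text turns on. Up to 5 were taken for pDC against lo-hi or pre-cDC and lo-lo against pre-cDC, and up to 3 for the other pairs. Where none was called, the 3 smallest p were chosen, and values in every library were given for only some of these. P-values rest on the spread between the 3 libraries of a population, pooled over the 4 populations, and floors and counts cover counting error only. Values of some genes on the lists are not reported here.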

Additional observations from a re-analysis of the deposited data

How the results depend on the processing

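The grouping of the wells decides these results. Under the deposited labels, with or without the labelled replicate number as a block, 0 genes were called between the 4 populations and 0 in every pair and direction. 37 called fold changes stood behind the pair counts. Of these, 21 changed sign under the labels and 20 did so with the labelled block. Without the block the reversed log2 values of pDC over pre-cDC were -0.34 for Isg20, -0.11 for Mx1, -0.40 for Oasl1, -0.28 for Oasl2, -0.27 for Ifi27l2a and -0.057 for Adar. Those of pDC over lo-lo were -0.61 for Ifit2, -1.23 for Ifit3, -0.43 for Mx1, -1.16 for Oasl1, -0.64 for Oasl2, -0.21 for Ifi44, -0.76 for Ifih1, -1.06 for Xaf1, -1.17 for Zbp1, -0.18 for Parp14, -0.17 for Dtx3l, -0.28 for Irgm1 and -0.18 for Lgals3bp. Lgals3bp was at -0.0091 in lo-hi over lo-lo, and Ifitm3 at 0.016 in lo-hi over pre-cDC. With the labelled block, pDC over pre-cDC gave -0.38 for Isg20, -0.12 for Mx1, -0.38 for Oasl1, -0.27 for Oasl2, -0.26 for Ifi27l2a and -0.058 for Adar. There pDC over lo-lo gave -0.58 for Ifit2, -1.13 for Ifit3, -0.46 for Mx1, -1.15 for Oasl1, -0.60 for Oasl2, -0.36 for Ifi44, -0.84 for Ifih1, -1.08 for Xaf1, -1.02 for Zbp1, -0.18 for Parp14, -0.16 for Dtx3l, -0.25 for Irgm1 and -0.079 for Lgals3bp, and Ifitm3 in lo-hi over pre-cDC was 0.022. No setting that kept the matched wells changed the sign of any of the 37.

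With the replicate block by matched set, counts were 25 between the 4 populations, 20 higher in pDC than lo-lo, 5 higher in lo-hi than lo-lo, 11 higher in lo-hi than pre-cDC, and 1 higher and 2 lower in lo-lo than pre-cDC, and all 37 calls were kept. Without a filter on low counts, the counts were 23 between the 4 populations, 5 higher in lo-hi than lo-lo, 9 higher in lo-hi than pre-cDC, 1 higher and 2 lower in lo-lo than pre-cDC, and 10 between the replicate sets. At a cutoff of 0.05 they were 25 between the 4 populations, 20 higher in pDC than pre-cDC, 1 lower in pDC than lo-lo, 3 higher in lo-hi than lo-lo, 9 higher in lo-hi than pre-cDC, 1 higher in lo-lo than pre-cDC and 10 between sets. Higher in lo-hi than lo-lo were 2 in DESeq2, 2 at a mean count of at least 10, 3 with the 6 libraries of the pair (which gave 8 higher in lo-hi than pre-cDC) and 4 with sets 1 and 2 alone (which gave 1 lower in both pDC and lo-hi than pre-cDC). Between sets, the count was 2 at a mean count of at least 10 and 2 after thinning. The cause of these moves was not tested. Under these settings, shares of all genes were counted only between the 4 populations with the replicate block (24.4%).

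Leaving out 1 library at a time gave 7 to 19 genes between the 4 populations, 6 to 17 higher and 1 to 2 lower in pDC than pre-cDC, 4 to 17 higher in pDC than lo-lo, 0 to 3 higher in lo-hi than lo-lo, 1 to 8 higher and 1 to 2 lower in lo-hi than pre-cDC, 0 to 1 higher and 1 to 2 lower in lo-lo than pre-cDC, and 2 to 11 between sets. The remaining directions and the labels stayed at 0 to 0. Shares of all genes were not counted in any of these fits. The lowest count between the 4 populations came without the pDC library of set 2, and without the pre-cDC library of set 1 it was 8. The same libraries took the count higher in pDC than pre-cDC to 6 and 8. 13 of the 37 calls were kept in all 12 of these fits, among them every Ifitm3, Ifit2 and Oasl1 call.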
